A study of Mus musculus with 6 samples.

Results

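The transcripts described here encode the machinery with which the endoplasmic reticulum (ER) folds, translocates and degrades secretory proteins: chaperones, protein disulfide isomerases, subunits of the translocon, components of ER-associated degradation, and the sensors and factors of the unfolded protein response. They were chosen by gene symbol from a list of 34 genes, drawn up with earlier results of these data known. Of these, 33 were measured, out of 12393 genes with a symbol of their own on the array. The remaining gene, Sec61g, lies on a probe set that carries several symbols and was not analysed here. Each gene is represented by its brightest probe set, a probe set being the group of oligonucleotides that reports 1 transcript region.

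The cells were murine multiple myeloma cells, labelled as malignant plasma cells from bone marrow. Control cells (3 arrays) spent 12 h in medium free of serum, with no IGF-1, and treated cells (3 arrays) spent 12 h in serum-free medium to which IGF-1 had been added at 100 ng/ml, so serum withdrawal was common to both groups. IGF-1, insulin-like growth factor 1, is a survival and growth factor for myeloma cells, and the comparison asks which transcripts differ in level in its presence. The labels give no line, strain or animal age, and do not say whether replicates were separate cultures, so the p-values reflect only the scatter among these arrays, and that scatter may be technical.

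A plasma cell secretes antibody in bulk, and its ER is built for that load. Nascent chains enter through the Sec61 channel, are held by the HSP70-type chaperone BiP (Hspa5) and its J-domain cofactors, receive disulfide bonds from the protein disulfide isomerase family, and pass through the calnexin and calreticulin cycle if they carry glycans. Chains that fail to fold are drawn back to the cytosol by the Sel1l and Syvn1 complex and destroyed by the proteasome. When unfolded chains accumulate, the sensors IRE1 (Ern1), ATF6 and PERK (Eif2ak3) signal to the nucleus. IRE1 splices the Xbp1 transcript, and XBP1 and ATF6 raise the transcription of chaperone and degradation genes.

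Some of these genes share a promoter sequence, the ER stress response element (ERSE), which ATF6 and XBP1 are known to bind together with NF-Y. Promoters of 300 bases, from 250 before to 50 after the annotated start, were taken from RefSeq (GRCm38.p6) and held entries for 29 of the 34 genes. The ERSE (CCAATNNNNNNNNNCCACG, either strand) was present in 8 of these 29 genes, 27.6%, compared with 0.229% of the 5676 genes tested that have a promoter entry and 0.119% of all 32851 promoters in the table. Here and below, the shares of tested genes and of all promoters include genes of the list itself. Of the 13 tested genes with an ERSE, 8 are on the list. ERSE-II (ATTGGNCCACG, either strand) was present in 2 further genes, Herpud1 and Dnajb11, compared with 0.106% of tested genes and 0.0365% of all promoters. The core of the unfolded protein response element (TGACGTGG, either strand) was present in Txndc5 alone among the 29, compared with 1.18% of tested genes and 0.676% of all promoters. This core contains CCACG on its reverse strand. The CCACG core by itself was present in 25 of the 29 genes, 86.2%, in 53.5% of tested genes and in 32.8% of all promoters. A gene can have several promoters, so shares of genes and of promoters are not on the same footing. The 10 genes with ERSE or ERSE-II make up 34.5% of the 29. Their elements upstream of the start, and the core in Txndc5, are shown because the results below are also set out by them. They are written 5′ to 3′ on the strand of the gene, with the element's defining bases in capitals, so that an element on the opposite strand reads CGTGG and then ATTGG. The ERSE-II of Dnajb11 lies past the annotated start and is not shown. The core in Txndc5 lies upstream of a start that is itself inside the gene's span, chr13:38500266-38528824.
Hspa5 (chr2:34772019-34772049, plus strand): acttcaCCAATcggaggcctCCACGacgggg
Hsp90b1, distal (chr10:86705632-86705662, minus strand): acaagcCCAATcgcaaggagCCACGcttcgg
Hsp90b1, proximal (chr10:86705527-86705557, minus strand): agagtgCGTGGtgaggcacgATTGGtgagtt
Pdia6 (chr12:17266485-17266515, plus strand): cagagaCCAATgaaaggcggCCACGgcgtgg
Dnajc3 (chr14:118937821-118937851, plus strand): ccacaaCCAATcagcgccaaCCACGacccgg
Canx (chr11:50325794-50325824, minus strand): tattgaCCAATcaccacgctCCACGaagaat
Calr (chr8:84847069-84847099, minus strand): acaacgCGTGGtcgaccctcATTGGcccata
Creld2 (chr15:88819514-88819544, plus strand): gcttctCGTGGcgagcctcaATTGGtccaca
Syvn1 (chr19:6046526-6046556, plus strand): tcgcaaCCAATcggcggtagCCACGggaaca
Herpud1, ERSE-II (chr8:94386371-94386393, plus strand): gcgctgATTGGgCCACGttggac
Txndc5, response element core (chr13:38528039-38528058, minus strand): cgccgcTGACGTGGcgctag

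In outline, 11 of the 33 genes rose with IGF-1, 0 fell and 22 did not pass the test (limma, Benjamini-Hochberg adjusted p under 0.05 over all 11313 probe sets tested). Without adjustment, at p under 0.05, 17 were higher and 2 lower, beside 993 higher and 1108 lower among all 6895 genes tested. With the adjustment, 7.05% of these 6895 genes rose and 8.05% fell. The median log2 difference of the 33 genes was 0.22, beside -0.01 for all genes tested, and 26 of the 33 were higher in IGF-1 than in control cells, beside 48.7% of all genes. All 33 genes passed the filter on low signal. In 18 genes every IGF-1 array lay above every control array, beside 17.1% of all genes, and in 1 gene, Xbp1, every IGF-1 array lay below, beside 18.2%. The rises were modest in size, from 1.24-fold to 1.68-fold.

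**Figure D1:**
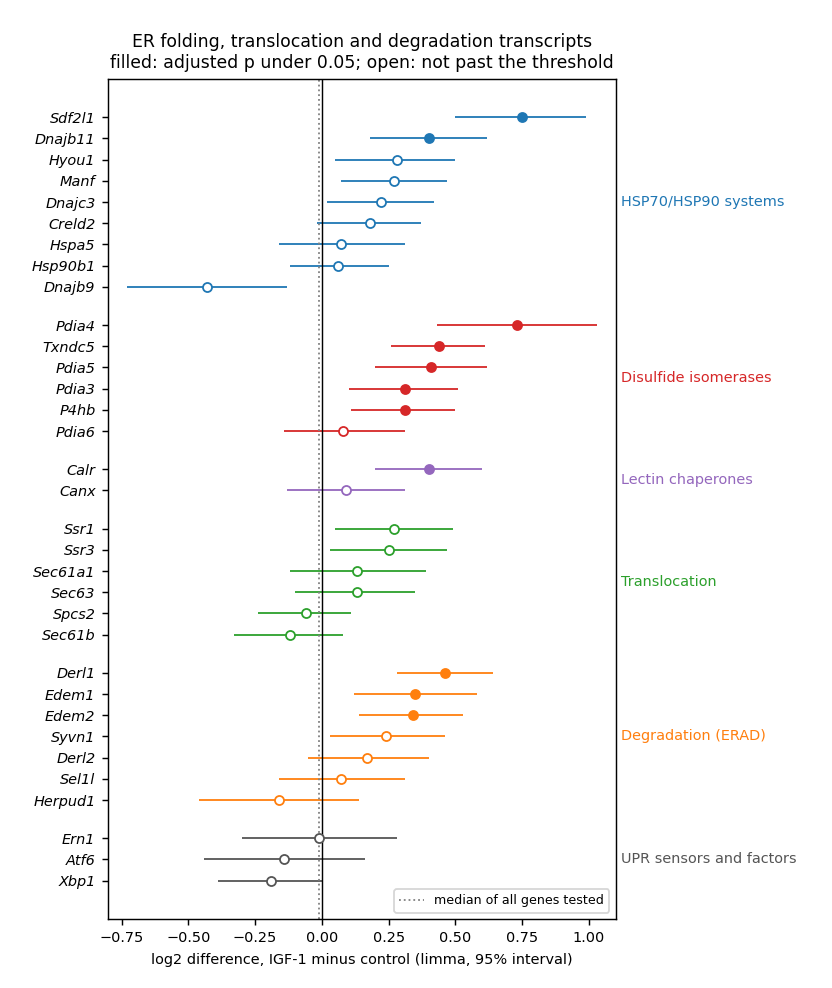
Log2 difference between IGF-1 and control cells for each of the 33 genes (points, with 95% intervals from limma), grouped by role. Filled points passed the test, open points did not, and the dotted line is the median of all genes tested (-0.01). Of the 6 disulfide isomerases 5 are filled, while none of the translocation genes or sensors is.

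All differences are relative to a scaling that sets the overall signal of each array equal. When the arrays were instead scaled to the spiked hybridization controls, all probe sets moved up by a median of 0.27. With that scaling 25 of the 33 genes passed as higher, beside 1691 of all 6895 genes tested, so both the size and the count depend on that choice. Relative to the median of all genes, the 33 genes stood 0.23 higher with the deposited scaling and 0.25 higher with the other. Both scalings apply 1 factor per array, so this gap could hardly change between them. With quantile normalization, which can change it, the median of the 33 genes was 0.18, beside 0.01 for all probe sets tested. With 1 array left out, 8 genes rose when control 1 was dropped, 7 when it was control 3, 6 when it was control 2 or IGF-1 3, and 5 when it was IGF-1 1 or IGF-1 2. The rises of Sdf2l1, Pdia4, Txndc5 and Derl1 passed in all 6 of these fits. With no filter on low signal, which adds dim probe sets to the adjustment, Pdia5 and these 4 passed, and Dnajb11, Pdia3, P4hb, Edem1, Edem2 and Calr did not. In bulk RNA, fewer cells of a type and less RNA per cell cannot be told apart.

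Pairs of arrays of the same group correlated at 0.9777 to 0.9844 on the log2 scale and pairs across groups at 0.9563 to 0.965, and the 3′ to 5′ signal ratios of Gapdh overlapped between groups (0.751 to 0.843 in control, 0.748 to 0.805 in IGF-1). Of 11 plasma cell markers 8 lay above the signal filter, among them Jchain, Sdc1, Irf4, Prdm1 and Tnfrsf17, while Cd28, Igk and Cd79a lay below it. Of the 8, 0 rose and 2 fell (Tnfrsf17 and Slamf7), and the summed signal was 8554 to 9066 in control and 8221 to 8735 in IGF-1 arrays. All 10 neutrophil markers on the array were above the filter, 0 rose and 2 fell (Ltf and Mmp8), and their summed signal was 25913 to 31157 in control and 23842 to 26691 in IGF-1 arrays. Of 12 macrophage and monocyte markers 8 were above the filter, of which 3 fell (Csf1r, Cd14 and Ccr2) and 1 rose (Cd68). Their summed signal was 5612 to 7475 in control and 4808 to 6636 in IGF-1 arrays, and Mrc1, C1qa, C1qc and Marco lay below the filter. Of the T cell markers all but Zap70 lay below it. Of 5 erythroid markers 3 were above it, of which 1 rose (Slc4a1, 0.54 ± 0.12, limma adjusted p = 0.017) and 0 fell. Of 8 stromal markers 3 were above it, and 0 rose or fell. The part of these cells' RNA in the results below was not tested.

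The protein disulfide isomerases, which form and reshuffle disulfide bonds in the ER lumen, were the role group with the most calls: 5 of 6 rose, 0 fell and 1 did not pass, with a median log2 difference of 0.36. Of these, 2 to 3 rose with 1 array left out. Pdia4, a multi-domain isomerase also called ERp72, had signals of 1281, 1230 and 888 in the control arrays and 1731, 2049 and 1820 in the IGF-1 arrays. Every IGF-1 array lay above every control array, and control 3 was the lowest. The mean signal went from 1133 ± 214 to 1867 ± 164 (SD, n = 3), a log2 difference of 0.73 ± 0.14 (SE; limma adjusted p = 0.0071).

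Txndc5 is an isomerase with repeated thioredoxin domains, and the response element core shown above lies before an internal start of this gene. Txndc5 had signals of 1021, 1001 and 1023 in control and 1328, 1416 and 1392 in IGF-1 arrays. The groups were tight and far apart, with a log2 difference of 0.44 ± 0.08 (limma adjusted p = 0.0068). Its second tested probe set differed by 0.23 ± 0.12 and did not pass. Pdia5, a further family member, had signals of 319, 318 and 287 in control and 419, 397 and 423 in IGF-1 arrays. These groups did not overlap (0.41 ± 0.09, limma adjusted p = 0.018), and the call was lost without control 3 or IGF-1 3 (highest adjusted p 0.064).

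Pdia3, the isomerase that works with calnexin and calreticulin on glycoproteins, had signals of 1836, 2101 and 2116 in control and 2668, 2414 and 2414 in IGF-1 arrays. P4hb, the founding member of the family, had signals of 3122, 3403 and 3634 in control and 4305, 4262 and 3993 in IGF-1 arrays. In both genes the IGF-1 arrays lay above the control arrays by a narrow gap, and both log2 differences were 0.31 ± 0.09 (limma adjusted p = 0.047 for Pdia3 and 0.04 for P4hb). Pdia3 lost its call whichever of the 6 arrays was dropped, and P4hb lost its call without any array but control 3 (highest adjusted p 0.14 for each). Pdia6, an isomerase that associates with BiP, did not pass: its signals were 1695, 2111 and 1912 in control and 1918, 1979 and 2152 in IGF-1 arrays. The groups overlapped, with a 95% interval of the log2 difference from -0.14 to 0.31.

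**Figure D2:**
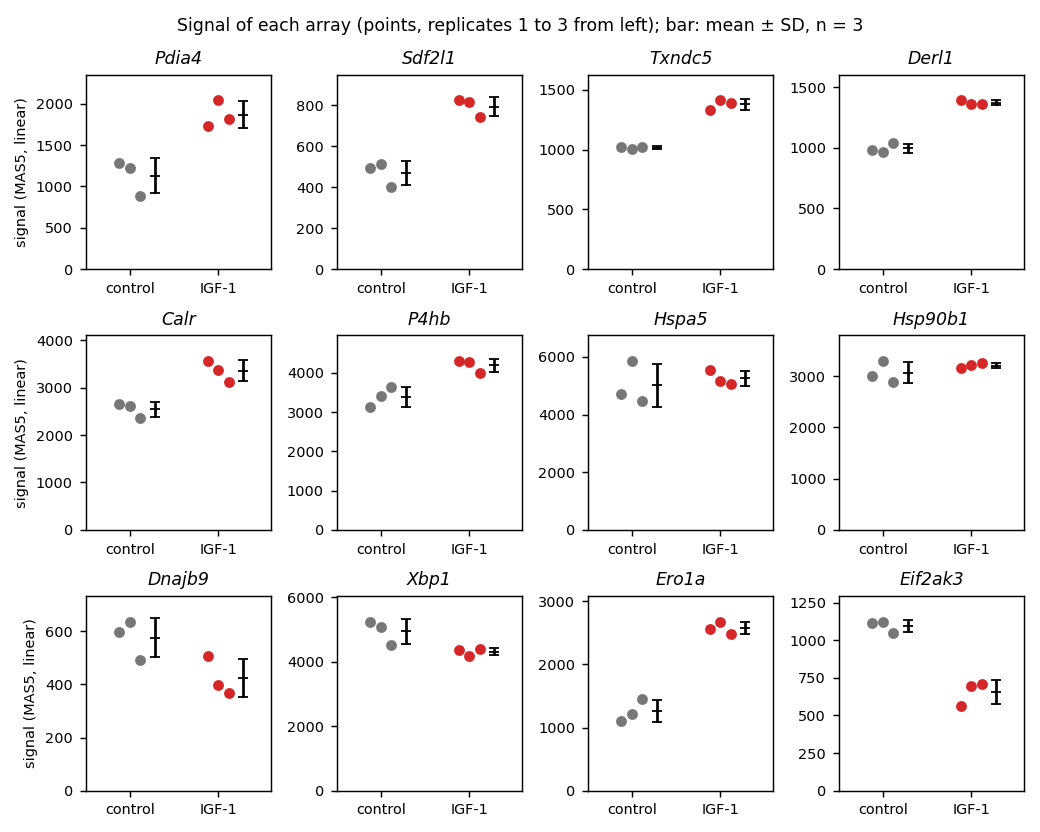
Linear signal of every array for 12 genes, from 0, with control arrays in grey and IGF-1 arrays in red and the mean ± SD (n = 3) beside each group. The groups are apart for Pdia4, Sdf2l1, Txndc5, Derl1, Calr, P4hb, Ero1a (higher in IGF-1), Xbp1 and Eif2ak3 (lower in IGF-1), and overlap for Hspa5, Hsp90b1 and Dnajb9.

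Among the 9 chaperones of the HSP70 and HSP90 systems and their cofactors, 2 rose, 0 fell and 7 did not pass (5 higher and 1 lower at an unadjusted p under 0.05, limma). The group's median log2 difference was 0.22. The 2 that rose, Sdf2l1 and Dnajb11, encode proteins that form a complex with each other in the ER lumen. Sdf2l1 had signals of 492, 514 and 403 in control and 827, 815 and 742 in IGF-1 arrays. Every IGF-1 array exceeded every control array by a wide margin, the mean going from 470 ± 59 to 795 ± 45.6 (SD, n = 3), the highest fold of the 33 genes at 1.68 (log2 difference 0.75 ± 0.11, limma adjusted p = 0.0024).

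Dnajb11, a J-domain cofactor that hands substrates to BiP, had signals of 817, 718 and 813 in control and 1134, 1008 and 973 in IGF-1 arrays. The groups did not overlap (0.40 ± 0.10, limma adjusted p = 0.022), and the call was lost when control 2, IGF-1 1 or IGF-1 2 was dropped (adjusted p up to 0.073). Another 4 genes of this group were higher in all IGF-1 arrays without passing the test. These were Hyou1, the nucleotide exchange factor of BiP (0.28 ± 0.10), Manf, a small luminal BiP-binding protein (0.27 ± 0.09), Dnajc3, a J-domain cofactor (0.22 ± 0.09), and Creld2, a luminal protein induced by ER stress (0.18 ± 0.09), with limma adjusted p of 0.093, 0.07, 0.13 and 0.21. A dimmer Hyou1 probe set rose (0.68 ± 0.13, limma adjusted p = 0.0095).

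The central chaperones themselves stood near 0. Hspa5 had signals of 4728, 5869 and 4467 in control and 5543, 5161 and 5064 in IGF-1 arrays. Control 2 was the highest of the 6 arrays and the groups overlapped, with a log2 difference of 0.07 and a 95% interval from -0.16 to 0.31. A dimmer Hspa5 probe set differed by 0.30 ± 0.09 (limma adjusted p = 0.058), with all IGF-1 arrays above all control arrays. Hsp90b1, the ER form of HSP90, had signals of 3009, 3297 and 2892 in control and 3148, 3213 and 3245 in IGF-1 arrays, a difference of 0.06 with a 95% interval from -0.12 to 0.25. Both genes had a difference of 0.35 to 0.36 and passed under scaling by the hybridization controls, close to the shift of all probe sets under that scaling.

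Dnajb9, a J-domain cofactor of BiP that also restrains IRE1, ran the other way. Its signals were 597, 636 and 493 in control and 506, 399 and 367 in IGF-1 arrays. Only control 3 and IGF-1 1 overlapped, and the log2 difference of -0.43 ± 0.14 did not pass (limma adjusted p = 0.058). It passed without control 3 (-0.53), without IGF-1 1 (-0.56) and with a filter at the 70th percentile of signal (adjusted p = 0.047), and it shrank to -0.15 with scaling to the hybridization controls.

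Of the lectin chaperones, Calr rose and Canx did not pass. Calr encodes calreticulin, the soluble lectin that retains glycoproteins during folding, and had signals of 2651, 2607 and 2358 in control and 3566, 3369 and 3127 in IGF-1 arrays. The groups did not overlap (log2 difference 0.40 ± 0.09, limma adjusted p = 0.015), and the call of this probe set was lost when control 3, IGF-1 1 or IGF-1 2 was dropped (adjusted p up to 0.062). Its other probe sets, which may also bind related transcripts, rose by 0.48 ± 0.09 and 0.63 ± 0.10. Canx encodes calnexin, the membrane-bound lectin, and had signals of 1144, 1232 and 1230 in control and 1385, 1121 and 1353 in IGF-1 arrays. IGF-1 2 was the lowest of the 6 arrays, and the 95% interval of the difference ran from -0.13 to 0.31.

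**Figure D3:**
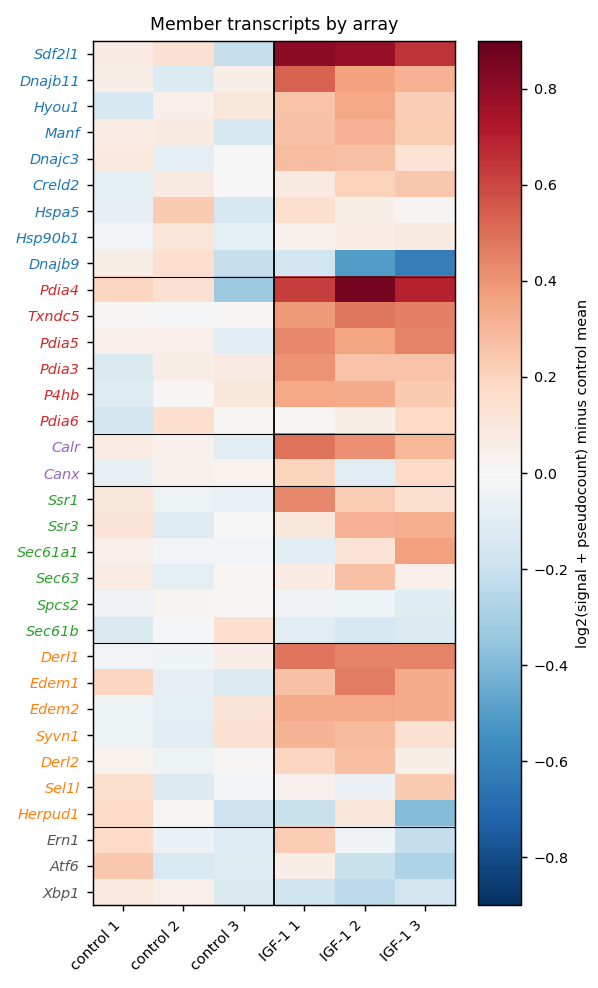
Log2(signal + 15.57) of each gene on each array minus the gene's mean over the control arrays, with genes grouped by role (label colours as in the plot of differences) and ordered by their difference. Red is higher and blue lower than the control mean; the rows of Sdf2l1, Pdia4, Txndc5 and Derl1 are red on all 3 IGF-1 arrays, and the bottom row, Xbp1, is blue on them.

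ER-associated degradation removes chains that do not fold. Of its 7 genes, 3 rose, 0 fell and 4 did not pass (4 higher and 0 lower at an unadjusted p under 0.05, limma), with a median log2 difference of 0.24. Derl1, a membrane protein of the retrotranslocation site, had signals of 978, 969 and 1039 in control and 1395, 1361 and 1361 in IGF-1 arrays. The spread within groups was small against the gap (0.46 ± 0.08, limma adjusted p = 0.0058). Of its 4 tested probe sets 2 rose, and the mean of the 4 gave a difference of 0.24 that did not pass.

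Edem2 and Edem1 act on the mannose residues that mark glycoproteins for degradation. Edem2 had signals of 892, 866 and 997 in control and 1168, 1166 and 1159 in IGF-1 arrays. The IGF-1 arrays were nearly equal and above all controls (0.34 ± 0.09, limma adjusted p = 0.028), and the call was kept only without control 3 when 1 array was left out (highest adjusted p 0.088). Edem1 had signals of 2786, 2319 and 2241 in control and 2926, 3367 and 3074 in IGF-1 arrays. Control 1 came close to IGF-1 1 (0.35 ± 0.10, limma adjusted p = 0.044), and the call was lost without any array but control 1 (highest adjusted p 0.16). The second Edem1 probe set differed by -0.20 ± 0.15, the opposite sign, and the mean of both gave 0.08.

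The ubiquitin ligase Syvn1 (0.24 ± 0.10, limma adjusted p = 0.12) and Derl2 (0.17 ± 0.10, limma adjusted p = 0.29) were higher in every IGF-1 array without passing. Sel1l, the partner of Syvn1, had signals of 3931, 3262 and 3492 in control and 3645, 3426 and 4194 in IGF-1 arrays. These groups overlapped, with a difference of 0.07 and a 95% interval from -0.16 to 0.31. A dimmer Sel1l probe set had every IGF-1 array below every control array without passing (-0.49 ± 0.15, limma adjusted p = 0.059), and the mean of the gene's probe sets gave -0.10, the opposite sign. Herpud1, a scaffold of the ligase complex, had a difference of -0.16 ± 0.13 with overlapping groups, and its second probe set one of -0.22 ± 0.11. The Herpud1 difference of -0.16 became 0.13 with scaling to the hybridization controls.

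The translocation genes did not pass the test: of 6 genes 0 rose and 0 fell by limma, with 2 higher and 0 lower at an unadjusted p under 0.05. Their median log2 difference was 0.13. Sec61a1, the channel-forming subunit, had signals of 1456, 1384 and 1384 in control and 1320, 1536 and 1826 in IGF-1 arrays. The IGF-1 arrays were spread widely around the controls, and 1 of its 6 probe sets rose while the other differences ranged from -0.25 to 0.21. Sec61b, a small subunit of the channel, had signals of 2187, 2362 and 2667 in control and 2237, 2162 and 2198 in IGF-1 arrays, a difference of -0.12 that turned to 0.16 with scaling to the hybridization controls.

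Ssr1 and Ssr3 encode subunits of the translocon-associated protein complex. They differed by 0.27 ± 0.10 and 0.25 ± 0.10 (limma adjusted p = 0.098 and 0.12), and a dimmer Ssr1 probe set rose (0.36 ± 0.09, limma adjusted p = 0.028). Sec63, which couples the channel to BiP, differed by 0.13 ± 0.10. Spcs2, a subunit of signal peptidase, had signals of 1893, 1964 and 1945 in control and 1894, 1871 and 1788 in IGF-1 arrays, a difference of -0.06 with a 95% interval from -0.24 to 0.11, which became 0.22 with scaling to the hybridization controls.

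The sensors and the factor of the unfolded protein response were lower or level with the deposited scaling, with 0 of 3 past the test in either direction (limma; 0 higher and 1 lower at an unadjusted p under 0.05), and all 3 differences were above 0 with scaling to the hybridization controls (median -0.14 and 0.13). Xbp1 had signals of 5247, 5094 and 4517 in control and 4354, 4193 and 4403 in IGF-1 arrays. Every IGF-1 array lay below every control array, by a small gap (-0.19 ± 0.09, limma adjusted p = 0.16). A dimmer Xbp1 probe set had signals of 1277, 1034 and 1137 in control and 730, 745 and 721 in IGF-1 arrays. This probe set fell (-0.63 ± 0.10, limma adjusted p = 0.0028), the single fall among the 68 tested probe sets of the 33 genes, of which 17 rose. Among all probe sets tested, 6.82% rose and 8.28% fell. The remaining Xbp1 probe sets differed by -0.24 ± 0.08 and 0.09 ± 0.14 and did not pass. Splicing of Xbp1 was not analysed here.

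Atf6 had signals of 351, 266 and 271 in control and 307, 254 and 240 in IGF-1 arrays. Ern1 had signals of 378, 321 and 307 in control and 394, 325 and 285 in IGF-1 arrays. Both pairs of groups overlapped, with differences of -0.14 (95% interval from -0.44 to 0.16) and -0.01 (95% interval from -0.30 to 0.28). A dimmer Ern1 probe set had every IGF-1 array below every control array without passing (-0.38 ± 0.13, limma adjusted p = 0.075), and the mean of the gene's tested probe sets gave -0.20.

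**Figure D4:**
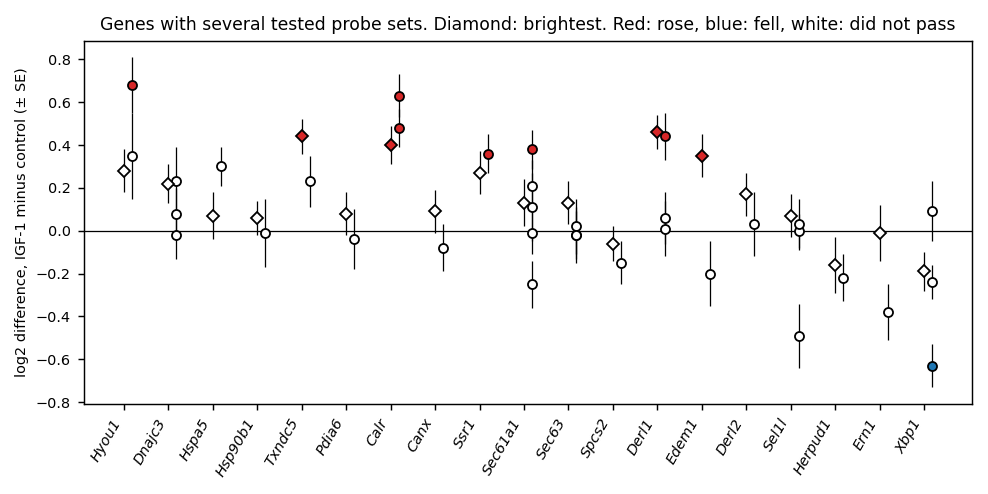
Log2 difference ± SE of every tested probe set for the 19 genes that have several, with the brightest as a diamond. Calr and Derl1 have more than 1 probe set that rose (red), a dimmer probe set of Hyou1, Ssr1 and Sec61a1 rose although the brightest did not pass, and 1 Xbp1 probe set fell (blue). The Hyou1 probe set that rose passed the signal filter only through its IGF-1 arrays.

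The genes with a promoter element can be set beside the others. Of the 10 genes with ERSE or ERSE-II, 2 rose (Calr and Dnajb11), 0 fell and 8 did not pass, with a median log2 difference of 0.13. Of the 18 measured genes with a promoter entry and neither element, 8 rose, 0 fell and 10 did not pass, with a median of 0.26. The difference between these sets was not tested. An absent match says only that the exact letters are not in this window.

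Further genes of the same pathway were taken from 5 lists chosen from knowledge of the pathway, with earlier results of these data known. Of 80 such genes tested, 13 rose, 4 fell and 63 did not pass, with a median of 0.05, beside the 7.05% and 8.05% of all genes that rose and fell. With 1 array left out, 3 to 10 rose (3 without IGF-1 3, 10 without control 1) and 2 to 3 fell. Among 18 other oxidoreductases, prolyl isomerases and cochaperones, 5 rose and 0 fell (8 and 2 at an unadjusted p under 0.05). Ero1a, the oxidase that recharges protein disulfide isomerase with oxidising equivalents, had signals of 1109, 1221 and 1453 in control and 2566, 2677 and 2488 in IGF-1 arrays. Its groups were far apart, a 2.04-fold rise (log2 difference 1.03 ± 0.11, limma adjusted p = 0.00035), larger than that of any of the 33 genes, and it passed with each array left out. Erp29 (0.50 ± 0.14), Tmx2 (0.49 ± 0.13) and Fkbp2 (0.40 ± 0.09) also rose. With 1 array left out, Fkbp2 lost its call without IGF-1 2 alone, Erp29 without any array but control 3, and Tmx2 without any array but IGF-1 2.

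**Figure D5:**
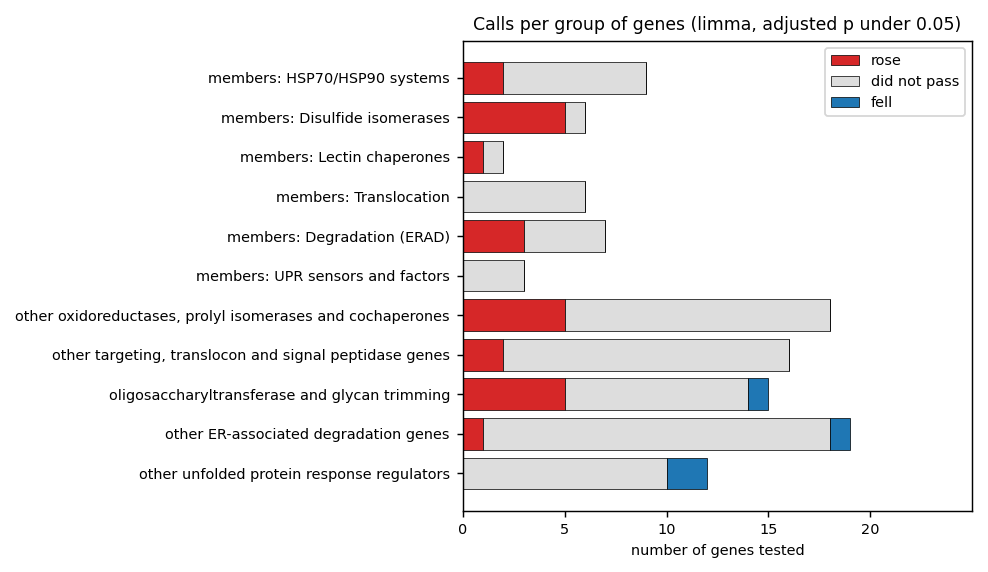
Number of genes tested in each role group of the 33 genes and in each list of other pathway genes, divided into genes that rose (red), did not pass (grey) and fell (blue). Rises are most frequent among the disulfide isomerases (5 of 6), and the other unfolded protein response regulators hold 2 falls and 0 rises.

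Among 15 genes of the oligosaccharyltransferase, which adds glycans, and of glycan trimming, 5 rose and 1 fell, with a median of 0.24. Mogs (0.53 ± 0.15), Ddost (0.39 ± 0.09), Ostc (0.38 ± 0.08) and Prkcsh (0.36 ± 0.11) had the largest rises. With 1 array left out, Ostc lost its call without IGF-1 3 alone while Ddost kept its call only when control 1 or IGF-1 1 was dropped. Mogs kept its call only without control 1, and Prkcsh only without IGF-1 1. The fall was Man1a, a mannosidase (-0.34), named after its value was seen. With 1 array left out Man1a kept its call only without control 3, and its difference was -0.06 with scaling to the hybridization controls. Between 0 and 4 genes of this list rose with 1 array left out. Among 16 other genes of targeting, translocon and signal peptidase, 2 rose and 0 fell (3 and 1 at an unadjusted p under 0.05, limma). Ssr2, another subunit of the translocon-associated complex, rose by 0.53 ± 0.11 in all fits with 1 array left out, and Srp68, of the signal recognition particle, by 0.32 ± 0.09, a call kept only without control 1. Among 19 other degradation genes 1 rose and 1 fell. They were Nploc4, a cofactor of the VCP segregase (0.48 ± 0.12, kept only without control 1), and the deglycosylating enzyme Ngly1 (-0.38 ± 0.11, kept only without IGF-1 1).

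Among 12 other regulators of the unfolded protein response, 0 rose and 2 fell (2 and 3 at an unadjusted p under 0.05, limma). Eif2ak3, which encodes the sensor kinase PERK, had signals of 1111, 1123 and 1048 in control and 562, 693 and 708 in IGF-1 arrays. Every IGF-1 array was below every control array, a 1.66-fold fall (log2 difference -0.73 ± 0.10, limma adjusted p = 0.0021), with 2 of 3 probe sets past the test. Creb3l2, a membrane-bound transcription factor related to ATF6, had signals of 649, 453 and 507 in control and 348, 265 and 314 in IGF-1 arrays. It fell by 0.76 ± 0.14 on the log2 scale (limma adjusted p = 0.0074), with 2 of 2 probe sets past the test. Both falls passed with each array left out. With scaling to the hybridization controls the differences were -0.45 for Eif2ak3, which passed, and -0.48 for Creb3l2, which did not.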

How the data were processed

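Each deposited value is a probe set's intensity on a linear scale. The submitters' processing notes name MAS5 and GCOS, without versions or a scaling target. Trimmed by 2% at each end, the mean was 150.1 in each array, so arrays had been scaled to a common level. Array medians were 49.96 to 55.36. Precision is limited by having 3 arrays per group.

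Of 22690 probe sets, 64 controls were left out. The platform annotation gave 1 symbol to 20380, several to 691 and none to 1555. Signals were tested as log2(signal + 15.57), the 25th percentile of all signals, for probe sets with a mean signal above 53.61, the median. Fold changes are on this scale, so changes of low signals are understated. IGF-1 was compared with control in R 4.3.3 with limma 3.58.1, by a linear model whose variances were moderated along an intensity trend, and two-sided p-values were adjusted by Benjamini-Hochberg over 11313 probe sets. The fit was tested on simulated data. Tables, promoter searches and plots used Python 3.11.15, pandas 2.3.3, numpy 2.4.6 and matplotlib 3.10.9. Alternatives covered the pseudocount, filter, scaling, eBayes settings, array weights, replicate block, arrays left out and probe set averaging.

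The members and lists were chosen with earlier results of these data known. All 33 measured members are named, with up to 4 called genes of the largest difference per other list.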

Additional observations from a re-analysis of the deposited data

How the results depend on the processing

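Signs held in all 16 alternatives for 24 of the 33 genes, and none of the 11 rises changed sign. The count of 11 rises became 5 with no filter, 7 with eBayes without trend and 25 with scaling to the hybridization controls, and 5 to 8 with 1 array left out. The count of 0 falls became 1 (Dnajb9) with the filter at the 70th percentile, with array weights and with the replicate block, and 0 to 1 with 1 array left out. The median difference of 0.22 was 0.18 with quantile normalization or the mean of probe sets per gene, 0.51 with scaling to the hybridization controls, and 0.19 to 0.23 with 1 array left out. Among other pathway genes, 13 rose and 4 fell. These counts were 5 and 2 with no filter, 7 and 2 without trend, 34 and 1 with scaling to the hybridization controls, and 8 rose with quantile normalization. With 1 array left out, 3 to 10 rose and 2 to 3 fell. Over all probe sets, 772 rose and 937 fell, becoming 448 and 498 with no filter, 2740 and 246 with scaling to the hybridization controls, and 406 to 659 and 491 to 792 with 1 array left out. The cause was not tested, except that fits with 1 array fewer have fewer samples. Groups share replicate numbers. Deviations of same-numbered arrays correlated at 0.12, -0.033 and 0.127, and those of differently numbered arrays at -0.149 to 0.029. The main fit used no block because the labels do not tie equal numbers to a shared culture. Whether same-numbered arrays share a source was not tested. With the replicate block 8 members rose and 1 fell, and Pdia3, P4hb and Edem1 lost their calls (limma adjusted p = 0.071, 0.059 and 0.059). Both pseudocounts, 1 and 50, left the calls of all 33 genes in place.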

Other observations

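Outside the 33 genes, 9 tested genes carried an exact ERSE or ERSE-II in their promoter (of 5676 tested genes with a promoter entry, 0.335% carried either, members included). They were chosen after their values were seen. Several serve the ER themselves: Derl3, a paralogue of Derl1, and Ero1b, a paralogue of Ero1a, carried an ERSE, as did Alg12, a mannosyltransferase of glycan assembly. Derl3 had signals of 540, 439 and 439 in control and 468, 461 and 494 in IGF-1 arrays, a log2 difference of 0.01 ± 0.11. Ero1b had signals of 374, 346 and 420 in control and 330, 331 and 265 in IGF-1 arrays. Its IGF-1 arrays lay below all controls without passing the test (-0.29 ± 0.12), whereas Ero1a rose. Krtcap2, of the oligosaccharyltransferase, and Nucb1, a calcium-binding protein, carried ERSE-II and differed by 0.28 ± 0.09 and 0.11 ± 0.12, neither past the test.

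Of these 9 genes 0 rose and 2 fell (limma adjusted p under 0.05), beside 7.05% and 8.05% of all genes tested. The falls were Rbm39, a splicing factor (-0.80 ± 0.11), and Pan2, a deadenylase subunit (-0.71 ± 0.16). Rcl1 (-0.34 ± 0.14) and Adcy3 (0.08 ± 0.15) did not pass. Rbm39 had signals of 406, 486 and 397 in control and 240, 243 and 236 in IGF-1 arrays and passed with each array left out. Pan2 kept its call only when control 1 or IGF-1 1 was dropped (adjusted p up to 0.063 otherwise).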
